A study of Mus musculus with 4 samples.

Results

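Central carbon metabolism was followed through 41 genes in lung T helper 2 (Th2) cells. The genes were selected by symbol from a list of pathway enzymes, drawn up with earlier results of these data known, and all 41 stood among the 11883 genes of the authors' deposited table. They comprise 17 genes of glucose uptake, glycolysis and lactate formation, 4 genes of pyruvate entry into the mitochondrial matrix pathway, 4 genes of the pentose phosphate pathway and 16 genes of the citrate cycle. Th2 cells are the CD4+ T cells that drive allergic inflammation. RNA was sequenced from lung cells sorted as live, CD4+ and positive for T1/ST2, the interleukin-33 receptor chain encoded by Il1rl1, from C57BL/6 mice given papain, a plant protease allergen, on a chronic schedule. There were 2 samples of Klrg1Cre Gata3(fl/fl), which carry a Cre recombinase named for Klrg1, a receptor gene of differentiated lymphocytes and of group 2 innate lymphoid cells (ILC2), and sites for Cre in Gata3. These are called Klrg1Cre here. There were 2 samples of Gata3(fl/fl), which carry the same floxed Gata3 without Cre and are called Gata3 fl/fl. Both groups received papain, and neither the age nor the sex of the mice is given in the sources used here. No group carried Klrg1Cre without floxed Gata3, so what follows from the Cre allele, from missing ILC2 and from loss of Gata3 within the Th2 cells cannot be told apart. The table heads its means "ILC2 deficient" and "WT", which were taken as Klrg1Cre and Gata3 fl/fl, a link that the labels do not state.

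Glycolysis splits glucose into pyruvate in the cytosol. Its preparatory steps spend ATP to trap and phosphorylate the sugar, and its payoff steps return ATP and end in pyruvate, which lactate dehydrogenase can reduce to lactate. The pentose phosphate pathway branches off at glucose-phosphate and yields NADPH and ribose, and the citrate cycle oxidises acetyl-CoA in mitochondria. Activated T cells, Th2 cells among them, are known to raise glucose uptake and lactate formation, a shift linked to signalling through mTOR, Myc and hypoxia-inducible factor.

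Expression values are the authors' group means in CPM, read counts scaled to the size of each library, with the authors' p-values. For 20 of the 41 members the deposited mean of each group could be written as whole reads of its libraries, which gave a value for each library. The other 21 are known as means only. Within a genotype the libraries are named by size, larger or smaller, since it is not known which is the first sample. Their totals were 26019065 and 14564426 reads in Klrg1Cre, and 33379572 and 31961572 reads in Gata3 fl/fl. Separate mice are not stated in the labels, and p-values therefore measure a spread between samples that could be technical. In bulk RNA, fewer cells of a type and less RNA per cell cannot be told apart.

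Other features of the libraries also differed by genotype. Rn45s, the ribosomal RNA precursor, took 67.1% of Klrg1Cre reads and 51.4% of Gata3 fl/fl reads, yet the remaining listed genes took a like share, 18.2% in Klrg1Cre and 17.8% in Gata3 fl/fl. The median log2 ratio over all genes was 0.01. Gata3, whose exons outside the floxed segment can still give reads, had 293.9 CPM in Klrg1Cre and 221.4 CPM in Gata3 fl/fl, so its level does not check the genotype. T cell markers were present, with Cd4 at 167.6 CPM in Klrg1Cre and 150.1 CPM in Gata3 fl/fl, and 13 of 14 T cell markers were listed. The sort marker Il1rl1 stood at 59.1 CPM in Klrg1Cre and 68.0 CPM in Gata3 fl/fl. Macrophage and monocyte RNA was present too: 20 of 20 markers were listed, and their summed means were 2395 CPM in Klrg1Cre and 3105 CPM in Gata3 fl/fl. That order rests on Chil3, a chitinase-like protein gene with 1124 CPM in Klrg1Cre and 1932 CPM in Gata3 fl/fl, since the other 19 summed to 1271 CPM in Klrg1Cre and 1173 CPM in Gata3 fl/fl. The 10 of these markers with library values summed to 580.8 and 336.9 CPM in the larger and smaller Klrg1Cre libraries, and to 378.05 and 412.8 CPM in the larger and smaller Gata3 fl/fl libraries. Most of each sum was Ctsd alone, with 538.3 and 308.4 CPM in the larger and smaller Klrg1Cre libraries. In the larger and smaller Gata3 fl/fl libraries Ctsd had 331.5 and 369.5 CPM, so the order of these sums rests on that gene. All 9 regulatory T cell markers had lower means in Klrg1Cre, with summed means of 329.8 CPM against 622.6 CPM in Gata3 fl/fl and a median log2 ratio of -1.05. Dendritic cell markers had higher means in Klrg1Cre in 6 of 6 listed genes, with summed means of 118.4 CPM in Klrg1Cre and 100.2 CPM in Gata3 fl/fl, and H2-Ab1 and H2-Aa were at an unadjusted p of 0.0196 and 0.0414. Neutrophil markers had higher means in 3 of 3 listed genes, at a summed 9.72 CPM in Klrg1Cre and 6.30 CPM in Gata3 fl/fl. Of 17 ILC2 markers, 8 had higher and 4 lower means in Klrg1Cre at an unadjusted p below 0.05, and the median log2 ratio was 0.34. Among the higher ones was Nmur1, with 7.73 CPM in Klrg1Cre and 2.40 CPM in Gata3 fl/fl. Klrg1 was among the lower ones, with 4.19 CPM in Klrg1Cre and 48.4 CPM in Gata3 fl/fl. Of 8 eosinophil markers, Epx, Prg2, Ear1, Ear6 and Il5ra were not among the listed genes, and Ccr3 had 2.89 CPM in Klrg1Cre and 5.58 CPM in Gata3 fl/fl (unadjusted p = 0.0165). The other listed ones had higher means in Klrg1Cre. Siglecf had 1.91 CPM in Klrg1Cre and 0.977 CPM in Gata3 fl/fl, and Alox15 had 0.504 CPM in Klrg1Cre and 0.137 CPM in Gata3 fl/fl. Listed B cell and epithelial markers summed to 1.72 and 12.2 CPM in Klrg1Cre, against 3.18 and 11.8 CPM in Gata3 fl/fl. The part of all these differences in the values of the metabolic genes was not tested.

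The promoters of Slc2a1 and Hk2, the members with the largest ratios among those at an unadjusted p below 0.05, are shown because these genes encode the entry points of glucose and because regulators that read such sequences were measured as well. The windows run from 250 bases before to 50 bases after the start of transcription and come from RefSeq on build GRCm38.p6, whereas the authors' reads were placed on mm9. Slc2a1 lies at chr4:119108495-119108794 on the plus strand, and Hk2 at chr6:82774405-82774704 on the minus strand. Capitals mark ACGTG, a form of the core of the hypoxia response element, or its reverse complement CACGT. The other form of this core, GCGTG, was not searched for and is not marked.
Slc2a1: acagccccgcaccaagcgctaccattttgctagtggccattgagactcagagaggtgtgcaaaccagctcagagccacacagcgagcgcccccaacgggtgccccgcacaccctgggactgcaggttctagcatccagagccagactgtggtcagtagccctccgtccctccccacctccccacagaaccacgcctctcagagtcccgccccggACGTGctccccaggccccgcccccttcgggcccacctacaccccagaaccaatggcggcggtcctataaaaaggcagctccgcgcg
Hk2: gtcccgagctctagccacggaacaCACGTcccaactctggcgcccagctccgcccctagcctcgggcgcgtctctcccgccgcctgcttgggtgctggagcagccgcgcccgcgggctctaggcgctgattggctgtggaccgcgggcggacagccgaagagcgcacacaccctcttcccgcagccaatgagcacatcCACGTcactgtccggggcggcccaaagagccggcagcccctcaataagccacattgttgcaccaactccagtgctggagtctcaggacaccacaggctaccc
The Slc2a1 window held 1 match to ACGTG and the Hk2 window held 2, while 0 such matches lay in the windows of Pfkl, Pfkp and Eno1. The first windows of Pfkl, Pfkp and Eno1 do hold GCGTG, so they do not lack every form of the core. RefSeq windows were matched for 38 of the 41 members. Only the first window listed for each gene was counted. Of these windows 13 (34.2%) held ACGTG on either strand, against 19.7% of 27025 promoters of the same length. Those promoters were matched for length only and not for GC content, so the difference between these shares cannot be read as particular to the members. Aldoa, Hk1 and Pkm held it in another window only, and so count as without a match. By pathway, 7 of 16 glycolysis members (43.8%), 1 of 4 pyruvate entry members, 1 of 4 pentose phosphate members and 4 of 14 citrate cycle members held it. The E-box CACGTG, the motif read by Myc and by carbohydrate response factors, was present in the first window of 2 of 38 members (5.26%) and in 7.24% of all promoters. Ogdh held it in other windows only. Every CACGTG also holds ACGTG, so the counts overlap. It holds ACGTG on both strands and so gives 2 matches at 1 site. A match is a description of these letters and not a measured binding site.

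Across the whole group of genes, 0 of 41 members passed an adjusted p of 0.05 in the authors' deposited table, where 7 of all 11883 genes (0.0589%) did. At an unadjusted p below 0.05, 5 members had higher means in Klrg1Cre and 0 had lower means, and all 5 were glycolysis genes: Slc2a1, Hk2, Pfkl, Pfkp and Eno1. Over all genes, 3.72% had higher and 3.37% had lower means at this p. A higher mean in Klrg1Cre at any p was found for 26 of 41 members, against 50.6% of all genes, and for 23 of 41 when both groups were rescaled to the listed genes other than Rn45s. The members' median log2 ratio was 0.07, and their means summed to 2051 CPM in Klrg1Cre and 1953 CPM in Gata3 fl/fl. Among the 20 members with library values, 7 had both Klrg1Cre libraries above both Gata3 fl/fl libraries, where 19.3% of the 5351 genes with library values did. Only Mdh1 had both Klrg1Cre libraries below, where 18.3% of those genes did, and the other 12 overlapped. With 2 samples against 2, an exact permutation test of 1 gene cannot give a two-sided p below 0.333. With limma on the library values, 2 of the 20 members were at an unadjusted p below 0.05 and 0 at an adjusted one, the lowest adjusted p being 0.444.

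**Figure D1:**
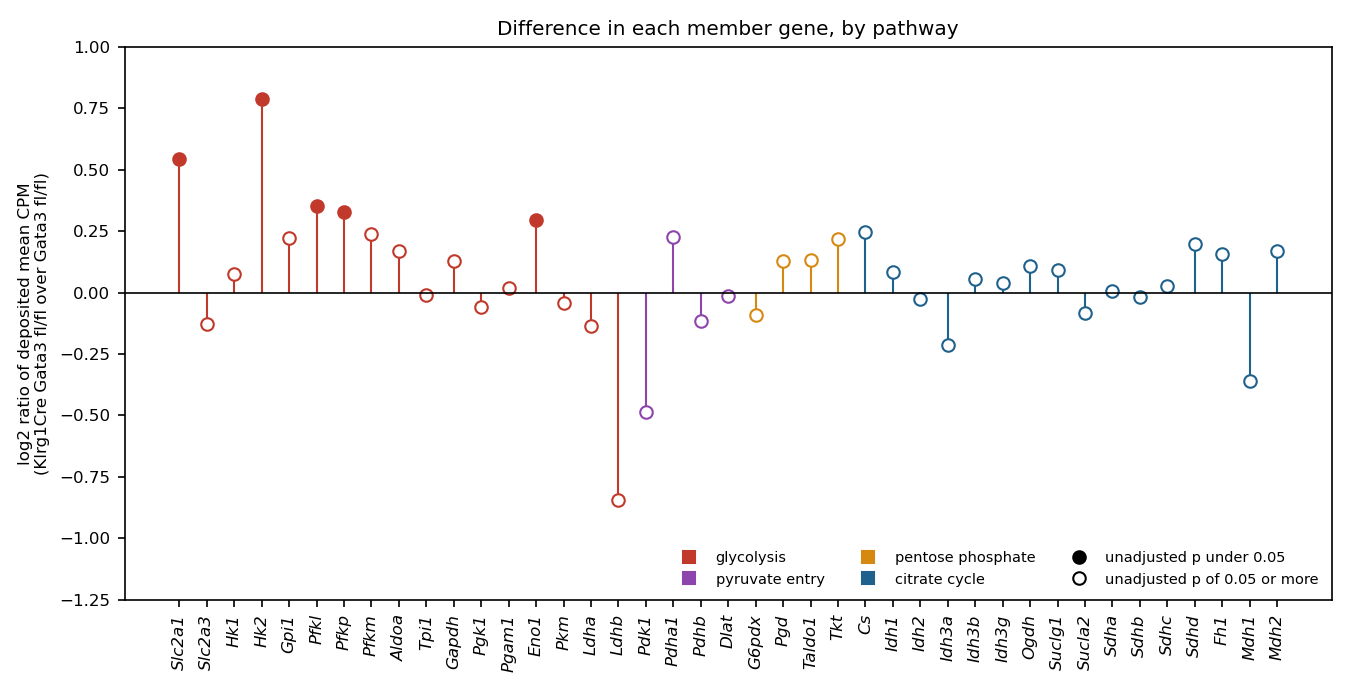
Log2 ratio of the deposited mean CPM, Klrg1Cre Gata3 fl/fl over Gata3 fl/fl, for each of the 41 members in pathway order. Colours give the 4 pathways and filled points an unadjusted p below 0.05 in the authors' deposited table. The 5 filled points are all glycolysis genes above 0, Hk2 is highest at 0.79 and Ldhb lowest at -0.85.

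**Figure D2:**
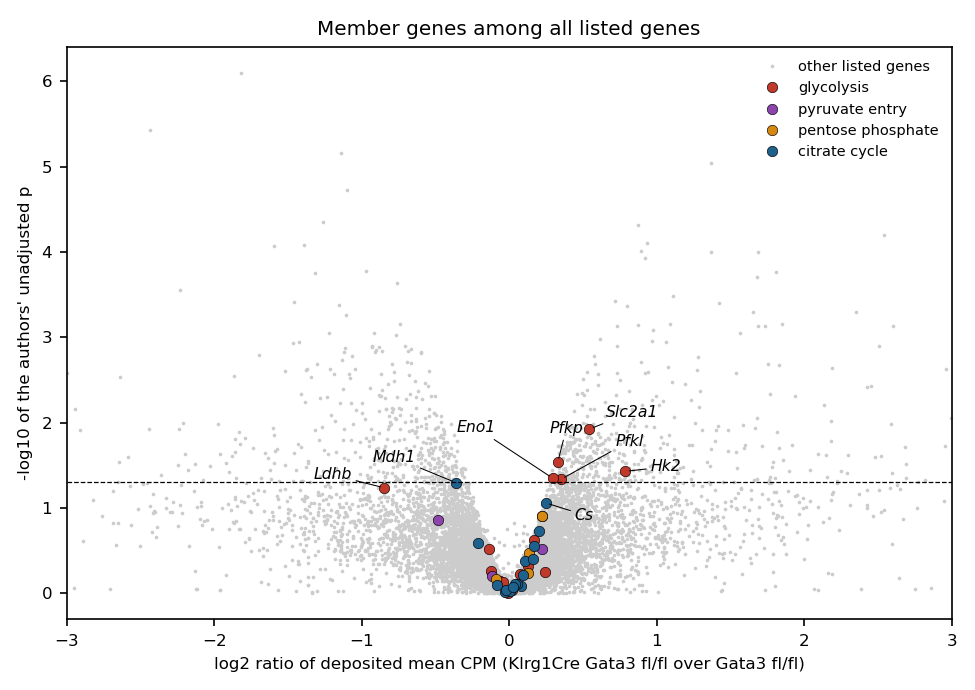
Log2 ratio of deposited means (horizontal) against -log10 of the authors' unadjusted p (vertical) for the 41 members in colour and the other listed genes in grey. The dashed line marks a p of 0.05, and 123 genes lie outside the plotted range. Of the members, 5 lie above the line, all on the right, with Mdh1 and Ldhb just under it on the left.

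Within glycolysis, the genes of uptake and the preparatory steps and those of the payoff steps gave different summaries. The 10 genes from glucose uptake to triose formation had a median log2 ratio of 0.23, 8 had higher means in Klrg1Cre, and 4 of these were at an unadjusted p below 0.05. The 7 genes from Gapdh to lactate dehydrogenase had a median of -0.04, with 3 higher means (2 when rescaled to the listed genes other than Rn45s), of which Eno1 alone was at an unadjusted p below 0.05. The means of uptake and preparation summed to 482.1 CPM in Klrg1Cre and 421.6 CPM in Gata3 fl/fl, and those of payoff to 747.0 CPM in Klrg1Cre and 748.4 CPM in Gata3 fl/fl. This split was made with the values known and the difference between the 2 sets was not tested. Over all 17 glycolysis genes the median was 0.13 and 11 had higher means in Klrg1Cre.

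Glucose uptake was represented by both main transporters of T cells. Slc2a1, which encodes GLUT1, the transporter that activated T cells raise, had 19.4 and 16.8 CPM in the larger and smaller Klrg1Cre libraries, against 11.95 and 12.9 CPM in the larger and smaller Gata3 fl/fl libraries. Both Klrg1Cre libraries were above both Gata3 fl/fl libraries. The deposited means were 18.1 CPM in Klrg1Cre and 12.4 CPM in Gata3 fl/fl, a 1.46-fold higher value in Klrg1Cre with an unadjusted p of 0.0119 and an adjusted p of 0.551 in the authors' deposited table. On log2(CPM + 1), limma gave a difference of 0.51 ± 0.16 (SE, n = 2 each) with an adjusted p of 0.444. Slc2a3, which encodes GLUT3, a transporter of high affinity, had 15.9 and 17.8 CPM in the larger and smaller Klrg1Cre libraries, against 20.8 and 15.99 CPM in the larger and smaller Gata3 fl/fl libraries. These groups overlapped, and the deposited ratio was 0.916 with an unadjusted p of 0.546 and an adjusted p of 0.918. Without the larger Gata3 fl/fl library the log2 ratio of Slc2a3 was 0.08, against -0.13 with both. The quotient of Slc2a1 to Slc2a3, in CPM and larger library first, was 1.22 and 0.946 in the Klrg1Cre libraries, against 0.574 and 0.808 in the Gata3 fl/fl libraries, without overlap. This quotient was picked with its values known and carries no test.

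Hexokinases trap glucose in the cell as glucose-phosphate. Hk2, the inducible isoenzyme, rested on 100 and 48 reads in the larger and smaller Klrg1Cre libraries, against 66 and 69 reads in the larger and smaller Gata3 fl/fl libraries. These amount to 3.84 and 3.30 CPM in Klrg1Cre, against 1.98 and 2.16 CPM in Gata3 fl/fl, again without overlap. The 95% Poisson interval of the smaller Klrg1Cre library, 2.43 to 4.37 CPM, reached into those of both Gata3 fl/fl libraries. These were 1.53 to 2.52 CPM in the larger and 1.68 to 2.73 CPM in the smaller Gata3 fl/fl library. All these intervals cover counting error only. The deposited ratio of 1.73 had an unadjusted p of 0.0374 and an adjusted p of 0.677, and limma gave a log2 difference of 0.57 ± 0.23 (SE, n = 2 each) with an adjusted p of 0.561. Hk1, the constitutive isoenzyme, had deposited means of 40.7 CPM in Klrg1Cre and 38.7 CPM in Gata3 fl/fl, a ratio of 1.05 with an unadjusted p of 0.599 and an adjusted p of 0.932. Hk3, the hexokinase of myeloid cells and not a member, had 15.2 CPM in Klrg1Cre and 18.7 CPM in Gata3 fl/fl.

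Phosphofructokinase catalyses the committed step of glycolysis, and all 3 of its subunit genes had higher means in Klrg1Cre. Pfkp, the platelet-type subunit, had deposited means of 64.4 CPM in Klrg1Cre and 51.2 CPM in Gata3 fl/fl, a ratio of 1.26 (unadjusted p = 0.0292, adjusted p = 0.637). Pfkl, the liver-type subunit, had 22.6 CPM in Klrg1Cre and 17.7 CPM in Gata3 fl/fl, a ratio of 1.28 (unadjusted p = 0.0463, adjusted p = 0.698 in the authors' deposited table). Pfkm, the muscle-type subunit, had 2.14 CPM in Klrg1Cre and 1.81 CPM in Gata3 fl/fl, a ratio of 1.18 with an unadjusted p of 0.565 and an adjusted p of 0.925. None of the 3 had library values. The transcript of Pfkp overlaps that of Pitrm1 on the opposite strand over 748 bases, and whether the counting used strand is not given. Pitrm1 itself had 12.7 CPM in Klrg1Cre and 10.7 CPM in Gata3 fl/fl.

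Of the remaining preparatory genes, Gpi1, which interconverts glucose-phosphate and fructose-phosphate, had 82.7 and 94.3 CPM in the larger and smaller Klrg1Cre libraries, against 77.7 and 74.2 CPM in the larger and smaller Gata3 fl/fl libraries, without overlap, and an unadjusted p of 0.124. Aldoa, the aldolase of most tissues, had deposited means of 197.8 CPM in Klrg1Cre and 175.8 CPM in Gata3 fl/fl (unadjusted p = 0.239). Tpi1, triose-phosphate isomerase, had 27.4 CPM in Klrg1Cre and 27.6 CPM in Gata3 fl/fl, and its libraries overlapped.

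In the payoff steps, Eno1, which encodes enolase, reached 181.5 CPM in the Klrg1Cre mean and 147.9 CPM in the Gata3 fl/fl mean, a ratio of 1.23 (unadjusted p = 0.0450, adjusted p = 0.698 in the authors' deposited table). Its near-identical copy Eno1b, 99.5% identical over 1736 bases, had 212.4 CPM in Klrg1Cre and 178.6 CPM in Gata3 fl/fl, so that reads of the pair may have been divided between them and the value of each is uncertain. Summed, the pair had 393.9 CPM in Klrg1Cre and 326.5 CPM in Gata3 fl/fl, a ratio of 1.21. Gapdh, the triose-phosphate dehydrogenase, had 14.1 CPM in Klrg1Cre and 12.9 CPM in Gata3 fl/fl, a ratio of 1.09 with an unadjusted p of 0.482. Its transcript resembles 75 annotated pseudogenes at 95% identity or more, so its level is uncertain as well. In all, 10 of the 41 members had at least 1 such pseudogene. Pgk1 and Pgam1, the kinase and the mutase that follow, had means of 20.5 and 38.3 CPM in Klrg1Cre, against 21.4 and 37.9 CPM in Gata3 fl/fl, and the libraries overlapped for both.

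At the end of glycolysis, all 3 genes had lower means in Klrg1Cre and 0 were at an unadjusted p below 0.05 in the authors' deposited table. Pkm, which encodes the pyruvate kinase of lymphocytes, had 221.7 CPM in Klrg1Cre and 228.5 CPM in Gata3 fl/fl, a ratio of 0.970 (unadjusted p = 0.732, adjusted p = 0.956). Ldha, the lactate dehydrogenase subunit that favours lactate formation, had 267.8 CPM in Klrg1Cre and 294.5 CPM in Gata3 fl/fl, a ratio of 0.909 (unadjusted p = 0.306, adjusted p = 0.838). Ldhb, the subunit that prevails in oxidative tissues, had the lowest ratio of all members, with 2.95 CPM in Klrg1Cre and 5.30 CPM in Gata3 fl/fl, 1.80-fold lower (unadjusted p = 0.0583, adjusted p = 0.709). It had no library values, and with a pseudocount of 1 its log2 ratio was -0.67 in place of -0.85.

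**Figure D3:**
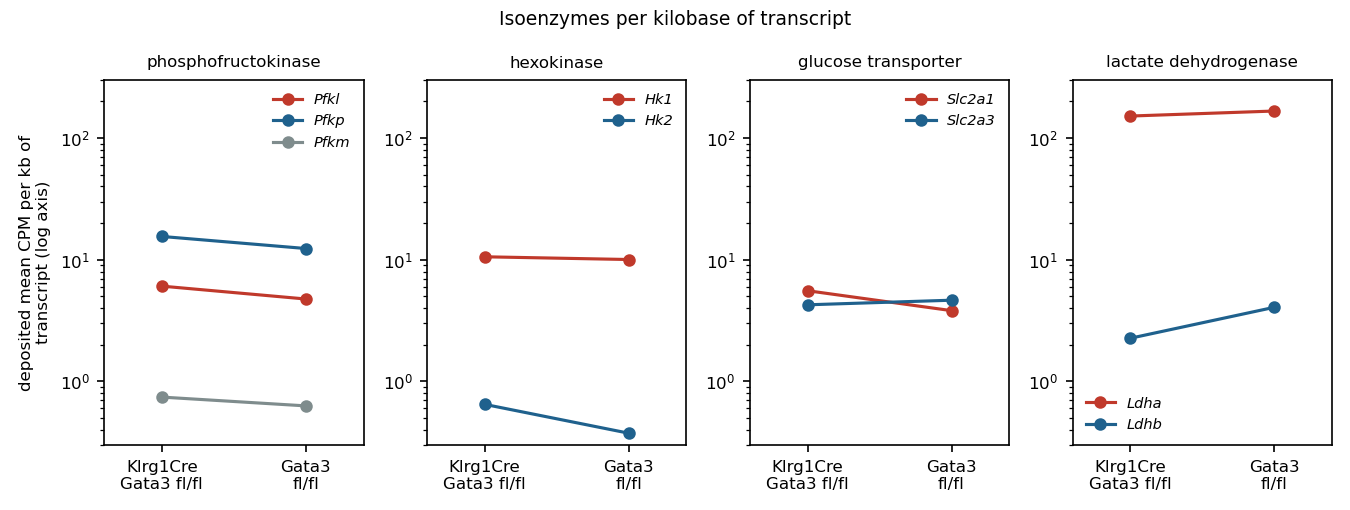
Deposited mean CPM per kilobase of transcript on a log axis for the isoenzymes of 4 steps, Klrg1Cre Gata3 fl/fl left of Gata3 fl/fl, with lines joining the means of 1 gene. Means carry no error bars because the table gives no spread. The order of isoenzymes was the same in both groups except for the glucose transporters, whose lines cross.

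Isoenzymes were compared per length of transcript, with lengths from GENCODE vM21. Hk1 made up 94.2% of the 2 hexokinase members' CPM per kilobase in Klrg1Cre and 96.4% in Gata3 fl/fl, and Hk2 made up 5.77% in Klrg1Cre and 3.60% in Gata3 fl/fl. Of the phosphofructokinase CPM per kilobase, Pfkp, Pfkl and Pfkm held 69.5%, 27.2% and 3.33% in Klrg1Cre, against 69.7%, 26.8% and 3.55% in Gata3 fl/fl. Slc2a1 held 56.6% of the 2 transporters' CPM per kilobase in Klrg1Cre and 45.1% in Gata3 fl/fl. Ldha held 98.5% of lactate dehydrogenase in Klrg1Cre and 97.6% in Gata3 fl/fl. These shares are of group means and were not tested.

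Pyruvate enters mitochondrial oxidation through the pyruvate dehydrogenase complex, which Pdk1 switches off by phosphorylation. Of the 4 genes, 0 were at an unadjusted p below 0.05, 1 had a higher mean in Klrg1Cre and 3 a lower one, and the median log2 ratio was -0.06. Pdk1, a kinase gene induced by hypoxia, had 3.31 CPM in Klrg1Cre and 4.63 CPM in Gata3 fl/fl, 1.399-fold lower (unadjusted p = 0.138, adjusted p = 0.764). Pdha1, the catalytic alpha subunit, had the highest ratio, with 23.1 CPM in Klrg1Cre and 19.7 CPM in Gata3 fl/fl (ratio 1.17, unadjusted p = 0.301, adjusted p = 0.838). Its transcript overlaps Map3k15, a gene that was not among those listed, on the opposite strand. Pdhb, the beta subunit, had 15.3 CPM in Klrg1Cre and 16.5 CPM in Gata3 fl/fl, and Dlat, the acetyltransferase core, had 8.16 CPM in Klrg1Cre and 8.23 CPM in Gata3 fl/fl. The libraries of both overlapped.

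In the pentose phosphate pathway, 3 of 4 members had higher means in Klrg1Cre and 0 were at an unadjusted p below 0.05, with a median log2 ratio of 0.13. The oxidative branch makes NADPH. Its first and limiting enzyme gene, G6pdx, had 10.5 CPM in Klrg1Cre and 11.2 CPM in Gata3 fl/fl, a ratio of 0.940 and the lowest of the 4 (unadjusted p = 0.677, adjusted p = 0.95005). Pgd, phosphogluconate dehydrogenase, had 31.1 CPM in Klrg1Cre and 28.4 CPM in Gata3 fl/fl. The non-oxidative branch returns pentoses to glycolysis. Tkt, transketolase, had 80.6 and 91.0 CPM in the larger and smaller Klrg1Cre libraries, against 75.7 and 71.7 CPM in the larger and smaller Gata3 fl/fl libraries, a deposited ratio of 1.16 with an unadjusted p of 0.125 and an adjusted p of 0.764. Taldo1, transaldolase, had 68.5 and 76.6 CPM in the larger and smaller Klrg1Cre libraries, against 64.3 and 68.2 CPM in the larger and smaller Gata3 fl/fl libraries (unadjusted p = 0.341). Neither gene's groups overlapped, although for Taldo1 the gap between the nearest libraries was small.

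The citrate cycle genes had ratios between 0.779 and 1.19. Of 16 members, 11 had higher and 5 lower means in Klrg1Cre, 0 were at an unadjusted p below 0.05, and the median log2 ratio was 0.05 with a range of -0.36 to 0.25. Rescaled to the listed genes other than Rn45s, 9 were higher and 7 lower, with a median of 0.02. Of the 9 with library values, Sdhd and Fh1 had both Klrg1Cre libraries above both Gata3 fl/fl libraries, Mdh1 had both below, and 6 overlapped. Over all 5351 genes with library values, 19.3% had both above and 18.3% both below, so these counts lie near those shares. Cs, the citrate synthase that starts the cycle, had the highest ratio, with 57.8 CPM in Klrg1Cre and 48.7 CPM in Gata3 fl/fl (ratio 1.19, unadjusted p = 0.0875, adjusted p = 0.737).

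The malate dehydrogenases had ratios on opposite sides of 1. Mdh1, the cytosolic enzyme of the malate-aspartate shuttle, had 48.6 and 49.6 CPM in the larger and smaller Klrg1Cre libraries, against 54.6 and 71.4 CPM in the larger and smaller Gata3 fl/fl libraries. The Klrg1Cre libraries were nearly equal and lay below both Gata3 fl/fl libraries, which differed from each other. The deposited mean was 1.28-fold lower in Klrg1Cre (unadjusted p = 0.0508, adjusted p = 0.704), and limma gave a log2 difference of -0.34 ± 0.15 (SE, n = 2 each) with an adjusted p of 0.647. Without the smaller Gata3 fl/fl library the log2 ratio of the means was -0.15, against -0.36 with both. Mdh2, the mitochondrial enzyme that closes the cycle, had 78.3 and 96.7 CPM in the larger and smaller Klrg1Cre libraries, against 74.7 and 80.8 CPM in the larger and smaller Gata3 fl/fl libraries. These overlapped, and the deposited ratio was 1.13 with an unadjusted p of 0.279. The quotient of Mdh1 to Mdh2 was 0.621 and 0.513 in the larger and smaller Klrg1Cre libraries, against 0.732 and 0.884 in the larger and smaller Gata3 fl/fl libraries, a pair also picked with its values known and not tested.

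The isocitrate dehydrogenases had ratios between 0.864 and 1.06, and 0 of 5 were at an unadjusted p below 0.05 in the authors' deposited table. Idh2, the mitochondrial NADP-linked enzyme, had 9.38 and 11.1 CPM in the larger and smaller Klrg1Cre libraries, against 8.63 and 12.2 CPM in the larger and smaller Gata3 fl/fl libraries, a deposited ratio of 0.981 (unadjusted p = 0.962, adjusted p = 0.993). Idh1, its cytosolic counterpart, had 7.30 CPM in Klrg1Cre and 6.89 CPM in Gata3 fl/fl. The 3 subunit genes of the NAD-linked enzyme of the cycle summed to 87.5 CPM in both groups. Of these, Idh3a had 14.5 CPM in Klrg1Cre and 16.7 CPM in Gata3 fl/fl, Idh3b had 37.3 CPM in Klrg1Cre and 35.95 CPM in Gata3 fl/fl, and Idh3g had 35.7 CPM in Klrg1Cre and 34.8 CPM in Gata3 fl/fl.

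Downstream in the cycle, Ogdh, the oxoglutarate dehydrogenase that controls flux, had 74.0 CPM in Klrg1Cre and 68.6 CPM in Gata3 fl/fl (ratio 1.08, unadjusted p = 0.420, adjusted p = 0.882). The succinyl-CoA ligase genes Suclg1 and Sucla2 had means of 17.4 and 9.68 CPM in Klrg1Cre, against 16.3 and 10.3 CPM in Gata3 fl/fl. Succinate dehydrogenase also serves the respiratory chain as complex II. In Klrg1Cre its flavoprotein gene Sdha, its iron-sulfur subunit gene Sdhb and its membrane anchor gene Sdhc had means of 60.5, 43.96 and 13.3 CPM. In Gata3 fl/fl these 3 means were 60.2, 44.5 and 13.1 CPM. The other anchor gene, Sdhd, had 40.6 and 42.7 CPM in the larger and smaller Klrg1Cre libraries, against 33.5 and 39.1 CPM in the larger and smaller Gata3 fl/fl libraries (unadjusted p = 0.189). Fh1, fumarase, had 11.8 and 12.1 CPM in the larger and smaller Klrg1Cre libraries, against 10.1 and 11.3 CPM in the larger and smaller Gata3 fl/fl libraries (unadjusted p = 0.401).

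**Figure D4:**
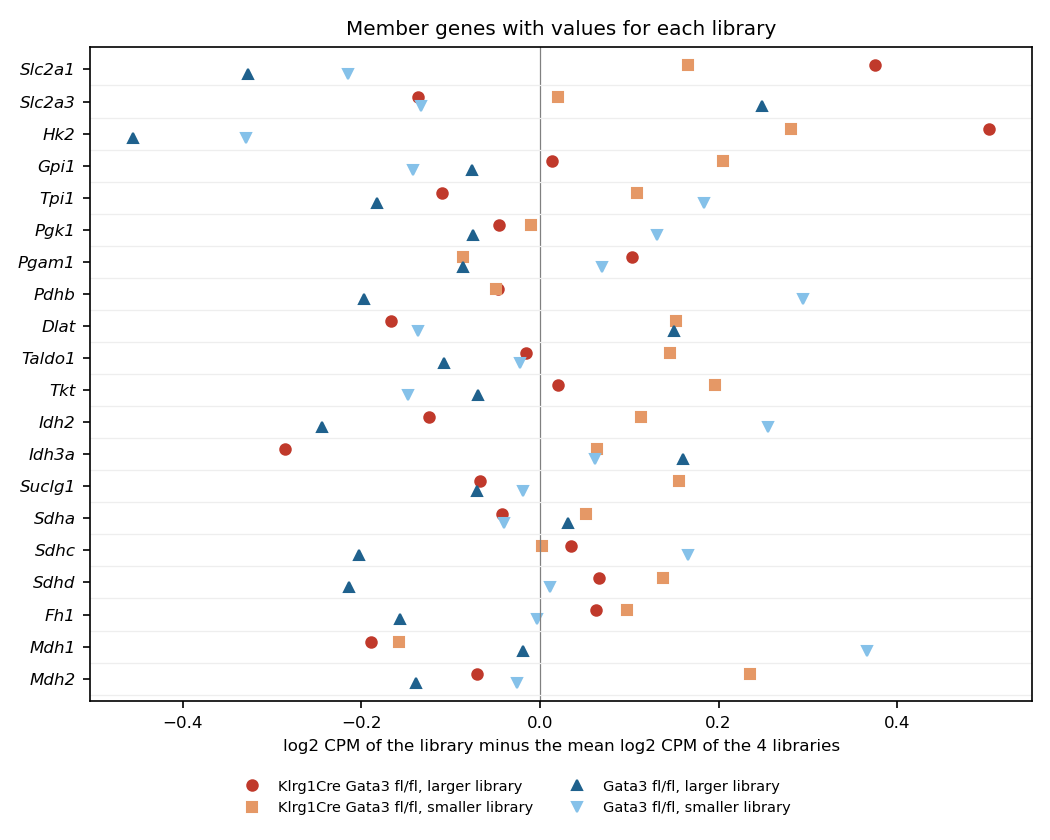
Log2 CPM of each library minus the mean log2 CPM of the 4 libraries, for the 20 members with library values, in pathway order from top to bottom. Red circles and orange squares are the larger and smaller Klrg1Cre Gata3 fl/fl libraries, and dark and light blue triangles the larger and smaller Gata3 fl/fl libraries. In Slc2a1 and Hk2 the red and orange points lie to the right of both blue points, and in Mdh1 to the left.

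The 2 libraries of a genotype differed from each other in these genes. Over the 20 members with library values, the median deviation from the gene's own mean was -0.04 in the larger and 0.11 in the smaller Klrg1Cre library on the log2 scale, and -0.10 in the larger and -0.01 in the smaller Gata3 fl/fl library. Over all 4242 genes of at least 1 CPM with library values, the 4 medians lay between -0.01 and 0.02. These were taken on log2(CPM + 1), which understates deviations of low genes, whereas the member values had no such offset. In Klrg1Cre the smaller library was the higher in each pathway, with medians in the larger and smaller library of 0.014 and 0.11 for glycolysis, 0.0024 and 0.17 for pentose phosphate, -0.11 and 0.052 for pyruvate entry, and -0.067 and 0.098 for citrate cycle members. In Gata3 fl/fl the order differed by pathway. There the larger and smaller library had -0.086 and -0.13 for glycolysis, -0.089 and -0.085 for pentose phosphate, -0.024 and 0.079 for pyruvate entry, and -0.14 and 0.011 for citrate cycle members. What sets the libraries apart was not tested.

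Other genes of the same pathways were taken from lists chosen by function. Of 26 listed glycolysis partners, 1 was at an unadjusted p below 0.05 with a higher mean in Klrg1Cre and 1 with a lower one, and the median log2 ratio was 0.01 (-0.02 when rescaled as above). Gpd2, the mitochondrial glycerol-phosphate dehydrogenase of the NADH shuttle, had 10.4 CPM in Klrg1Cre and 6.45 CPM in Gata3 fl/fl (ratio 1.61, unadjusted p = 0.0136, adjusted p = 0.583). Adpgk, an ADP-dependent glucokinase, had 6.04 CPM in Klrg1Cre and 10.1 CPM in Gata3 fl/fl, 1.68-fold lower (unadjusted p = 0.00676, adjusted p = 0.473). The most abundant gene of the list, Bsg, the chaperone of the lactate transporters, had 66.1 CPM in Klrg1Cre and 65.3 CPM in Gata3 fl/fl. None of the 12 listed pyruvate entry partners and none of the 10 pentose phosphate partners was at an unadjusted p below 0.05 in the authors' deposited table. Of the pentose phosphate partners 9 of 10 had lower means in Klrg1Cre, against 5869 of all 11883 genes, with a median log2 ratio of -0.12. Pgls, the lactonase and most abundant of these partners, had 28.7 CPM in Klrg1Cre and 32.1 CPM in Gata3 fl/fl. In the pyruvate entry list the median was 0.05, and Mpc1, a subunit of the mitochondrial pyruvate carrier, had 15.2 CPM in Klrg1Cre and 14.04 CPM in Gata3 fl/fl. Of 24 listed citrate cycle partners, Me2, the mitochondrial malic enzyme, was the single gene at an unadjusted p below 0.05, with 18.3 CPM in Klrg1Cre and 13.5 CPM in Gata3 fl/fl (ratio 1.35, unadjusted p = 0.0480, adjusted p = 0.698). The median of that list was -0.02, and its most abundant gene, Acly, the ATP citrate lyase of the cytosol, had 54.0 CPM in Klrg1Cre and 53.3 CPM in Gata3 fl/fl.

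Of 32 listed regulators of glycolytic genes, 0 had a higher and 3 a lower mean in Klrg1Cre at an unadjusted p below 0.05, and 0 passed adjustment in the authors' deposited table. Over all genes, 3.72% had higher and 3.37% had lower means at this p. Hif1a, the oxygen-regulated subunit of hypoxia-inducible factor, had 83.6 CPM in Klrg1Cre and 114.1 CPM in Gata3 fl/fl, 1.36-fold lower (unadjusted p = 0.0119, adjusted p = 0.551). Egln3, a prolyl hydroxylase that marks this factor for decay and is itself hypoxia-inducible, had 7.26 and 5.90 CPM in the larger and smaller Klrg1Cre libraries, against 9.35 and 12.6 CPM in the larger and smaller Gata3 fl/fl libraries. It was 1.67-fold lower with an unadjusted p of 0.0118 and an adjusted p of 0.551, without overlap of the groups. Pik3ca, a catalytic subunit of phosphoinositide kinase upstream of mTOR, was 1.63-fold lower (unadjusted p = 0.0303, adjusted p = 0.638), with 3.57 and 2.95 CPM in the larger and smaller Klrg1Cre libraries, against 4.88 and 5.76 CPM in the larger and smaller Gata3 fl/fl libraries. Myc had the highest ratio of the list, 1.35, with 17.3 CPM in Klrg1Cre and 12.8 CPM in Gata3 fl/fl (authors' unadjusted p = 0.212). The median of the list was -0.01, with 16 higher and 16 lower means. Of 13 regulators with library values, 3 had both Klrg1Cre libraries above and 2 had both below the Gata3 fl/fl libraries. Over all 5351 genes with library values these shares were 19.3% and 18.3%. These counts depend on which genes were listed. Pik3cd, another catalytic subunit of this kinase and not in the list, had a log2 ratio of 0.45 (authors' unadjusted p = 0.0156, adjusted p = 0.596). Mlst8, an mTOR complex subunit also outside the list, had a log2 ratio of 0.64 (authors' unadjusted p = 0.0244, adjusted p = 0.618).

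Hypoxia-induced genes outside glycolysis had lower means in Klrg1Cre in 10 of 13 listed genes, against 5869 of all 11883 genes. Their median log2 ratio was -0.19, with summed means of 104.8 CPM in Klrg1Cre and 124.0 CPM in Gata3 fl/fl. Some of them lay near the floor. Ankrd37, with a lower mean in Klrg1Cre, and Car9 and Plod2, with higher ones, were below 1 CPM in both groups. Ddit4, an inhibitor of mTOR signalling, was the single gene of the list at an unadjusted p below 0.05. It had 15.99 and 15.8 CPM in the larger and smaller Klrg1Cre libraries, against 23.7 and 20.2 CPM in the larger and smaller Gata3 fl/fl libraries, 1.38-fold lower (unadjusted p = 0.0193, adjusted p = 0.610). Of 7 genes of this list with library values, 0 had both Klrg1Cre libraries above and 3 had both below the Gata3 fl/fl libraries. Over all 5351 genes with library values these shares were 19.3% and 18.3%. The most abundant gene of the list, Bnip3l, a mitophagy receptor gene, had 30.4 CPM in Klrg1Cre and 37.1 CPM in Gata3 fl/fl (unadjusted p = 0.0898). The list does not hold every hypoxia-induced gene. Hilpda, outside it, had a higher mean in Klrg1Cre, at a log2 ratio of 0.92 (authors' unadjusted p = 0.00264, adjusted p = 0.321). Of the 13 members whose first promoter window held ACGTG, 8 had higher means in Klrg1Cre, Slc2a1 and Hk2 among them. The other 5 had lower means, namely Ldha, Pgk1, Mdh1, G6pdx and Pdhb. The Ldha window held the most matches with 5, but each of its 2 CACGTG was counted on both strands, so its separate sites are fewer. Of the 25 members whose first window held no match, 17 had higher and 8 lower means. Aldoa, Hk1 and Pkm, with a match in another window, are among these 25. The list was not tested as a set.

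**Figure D5:**
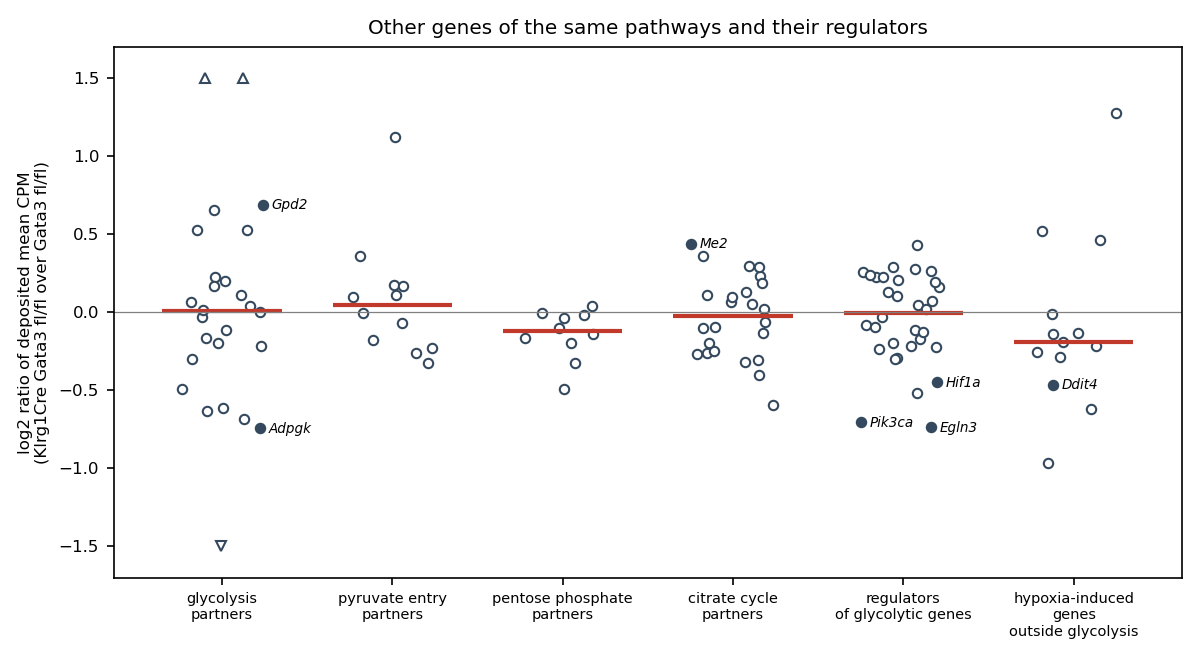
Log2 ratio of the deposited mean CPM, Klrg1Cre Gata3 fl/fl over Gata3 fl/fl, for the listed genes of 6 further lists, with 1 point a gene spread sideways for sight, filled where the unadjusted p was below 0.05, and a red line at each median. Triangles mark 3 genes drawn at the edge. The medians run from -0.19 for hypoxia-induced genes to 0.05 for pyruvate entry partners. The filled points are Adpgk, Hif1a, Egln3, Pik3ca and Ddit4 below 0, and Gpd2 and Me2 above 0.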

How the data were processed

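RNA of 4 sorted lung Th2 samples was sequenced, 2 for each genotype. The submitters' processing notes name STAR, Partek and build mm9, without versions or settings. The deposited table holds group means in CPM, the deposited ratio of these means, and the authors' deposited p-value for each gene with its adjustment, from a model not named in the sources used here. Every deposited mean includes an offset of 0.0001 CPM. The ratio equalled the quotient of the means, and the adjusted p a Benjamini-Hochberg adjustment, in all 11883 genes. There were 0 unused columns of single samples. The plan for counts, edgeR, was replaced by the authors' test because the table holds means.

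From the steps of the means, library totals were worked out and each mean split into whole reads of its libraries, to within 1e-08 reads and for means up to 20000 CPM. This held for 5820 genes (49.0%) in Klrg1Cre, 5581 (47.0%) in Gata3 fl/fl and 5351 (45.0%) in both, so no count model was fitted. The split and the limma step were tested on simulated data. As an alternative test, log2(CPM + 1) of the 4242 split genes of at least 1 CPM went into limma 3.58.1 (R 4.3.3, trended variance, n = 2 each), with the adjustment over those genes. This scale understates changes of low genes. Counting intervals are exact Poisson intervals at 95%.

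Every member is given by its means. Members with an unadjusted p below 0.05, control points of each pathway and the highest and lowest ratio of each pathway are given in full, and partner genes are named where their unadjusted p was below 0.05 or where they were the most abundant of their list. Hk3, Hilpda, Pik3cd, Mlst8 and genes alike to or overlapping a member were named outside this rule, after their values were seen. The members and all lists were chosen with earlier results of these data known. Near-identical transcripts were sought with blastn 2.17.0 in GENCODE vM21 (at least 95% identity over 200 bases). Promoters are from RefSeq. Alternatives were other pseudocounts and filters, centring, rescaling to listed genes other than Rn45s, library-resolved genes, limma and leaving out each library.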

Additional observations from a re-analysis of the deposited data

How the results depend on the processing

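Under the adjustment over genes of at least 1 CPM, a threshold of 0.1, limma and limma without each library, 0 members passed, and the lowest adjusted p that limma gave a member was 0.260, for Slc2a1 without the smaller Klrg1Cre library. The sign of each pathway's median over all its members was the same under both scalings. The count of glycolysis genes with higher means at an unadjusted p below 0.05, 5 in the authors' deposited table, was 2 among members with library values, 2 with limma and 2 with limma on libraries rescaled to the sum of resolved genes. These settings test 7 of the 17 glycolysis genes. Leaving out each library in turn gave 0 to 2 with limma, 0 without the larger Klrg1Cre library and 0 without the larger Gata3 fl/fl library. A lone library is then assumed to vary like the other group. For citrate cycle genes lower at this p, 0 in the main result, limma on rescaled libraries gave 1, Mdh1, and leaving out a library gave 0 to 1, the 1 being without the larger Gata3 fl/fl library. The median log2 ratio over glycolysis members with library values, 0.02, ranged from 0.077 to 0.19 when a library was left out. Over citrate cycle members it was 0.03 and ranged from -0.023 to 0.22. For both, the highest value came without the smaller Gata3 fl/fl library, and the cause was not tested. With libraries rescaled to the sum of resolved genes these medians were -0.02 and -0.01, an alternative chosen after seeing the data. Rescaling to listed genes other than Rn45s lowers every log2 ratio by 0.03 and centring by 0.01. Hk2 at a log2 ratio of 0.79 was 0.57 with a pseudocount of 1, and Mdh1 at -0.36 was -0.54 without the larger Gata3 fl/fl library. The citrate cycle partners' median of -0.02 was 0.10 over genes of at least 5 CPM. No paired analysis was possible because the deposited columns carry no replicate numbers. Depth limits Hk2, Pfkm, Ldhb and Pdk1 most, at means of 5.30 CPM or less, and 21 of 41 members have no library values.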
